A study of Homo sapiens with 16 samples.

Results

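MHC class I molecules carry peptides from inside the cell to its surface, where CD8 T cells and NK cells read them. The 9 genes described here build and load these molecules, or control their transcription, and they were taken by symbol from a table of 58051 Ensembl gene identifiers. They are the heavy chain genes HLA-B, HLA-C, HLA-E and HLA-F, the shared light chain gene B2M, the peptide transporter genes TAP1 and TAP2, the loading chaperone gene TAPBP (tapasin) and NLRC5, which encodes the class I transactivator. All 9 symbols were found, each on 1 identifier. RNA was sequenced from P493-6, an established Epstein-Barr virus-immortalised human B cell line with a conditional MYC transgene that doxycycline represses and a viral EBNA2 protein that estrogen activates. Every group carried both constructs. The high-MYC cells received neither additive, and the medium-MYC cells received doxycycline at 0.1 µg/mL and β-estradiol at 1 µM from 24 h before treatment, so MYC level, doxycycline and estrogen cannot be told apart. Cells at each MYC level were then given DMSO or 100 nM IMP1088 for 24 h, with 4 libraries in each of the 4 groups. IMP1088 inhibits the N-myristoyltransferases, enzymes that add a myristoyl lipid to proteins that start with glycine. The study's title asks how the response to this inhibition relates to the MYC level. All groups are cultures of 1 line, and nothing in the labels says that replicates were separate cultures, so p-values measure only the spread between these samples, which may be technical.

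In the class I pathway, the proteasome and its interferon-inducible subunits cut cytosolic proteins into peptides. TAP1 and TAP2 form the transporter that moves peptides into the endoplasmic reticulum, where tapasin and its partners load them onto a heavy chain paired with β2-microglobulin. Transcription of these genes is driven by interferon-responsive factors such as those of the IRF family, by NF-κB, and by NLRC5, which is recruited to an upstream module bound by RFX, NF-Y and CREB/ATF proteins. B cells express class I molecules constitutively, and MYC has been linked to lower class I expression in several tumour types.

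Sequenced depth lay between 8755296 and 13858534 reads per library. The 9 genes together took from 0.248% to 0.255% of the reads at high MYC and from 0.402% to 0.422% at medium MYC. All 6 B cell markers (among them MS4A1 and CD79A) were detected in every group, with summed normalized counts from 19245 to 39481 per library. The sums over 5 markers each were 27.96 to 100.6 for T and NK cells, 41.42 to 84.44 for myeloid cells and 65.94 to 238.1 for stromal and epithelial cells. Both the T and NK sum (27.96 to 46.7 at high and 48.04 to 100.6 at medium MYC) and the stromal and epithelial sum (65.94 to 94.59 and 177.3 to 238.1) were higher at medium MYC without overlap. Among their genes, CD3E went from 37.32 to 59.61 and NKG7 from 3.07 to 23.16 between the means of the DMSO groups. CD3D stayed at 2.57 or less in every library. COL1A1 ranged from 4.44 to 19.36 at high and from 151.8 to 217.2 at medium MYC. EPCAM, in the same stromal and epithelial sum, went the other way. It ranged from 54.23 to 86.28 at high and from 9.39 to 22.85 at medium MYC. With IMP1088, NKG7 fell at high MYC (to 0.478) and CD3E at medium MYC (to 35.71). At medium MYC the myeloid sum was 51.7 to 62.58 with DMSO and 80.39 to 84.44 with IMP1088. The stromal and epithelial sum there was 177.3 to 189.9 and 210.9 to 238.1, so both were higher with IMP1088 without overlap. The T and NK sum was lower there (71.97 to 100.6 with DMSO and 48.04 to 64.57 with IMP1088). At high MYC each of these sums overlapped between treatments. The part of these markers in the results was not tested. The B cell sum was lower with IMP1088 at both MYC levels (23822 to 24000 with DMSO and 19245 to 20206 with IMP1088 at high MYC, and 38767 to 39481 and 34125 to 35360 at medium MYC), and the part of B cell state in the values below was not tested. In bulk RNA, fewer cells of a kind and less RNA per cell cannot be told apart, and a normalized count is a share of a library and not an amount per cell.

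The genes sit at the following places (GENCODE 29, GRCh38). The heavy chain genes and the loading genes lie in the MHC region of chromosome 6. HLA-B spans 31269491 to 31357188 and HLA-C spans 31268749 to 31272130, both on the minus strand, and their annotated exons overlap. HLA-E spans 30489467 to 30494205 and HLA-F spans 29722775 to 29738528, both on the plus strand. TAP1 spans 32845209 to 32853978, TAP2 spans 32821833 to 32838780 and TAPBP spans 33299694 to 33314387, all on the minus strand. B2M is on chromosome 15 at 44711487 to 44718877 and NLRC5 is on chromosome 16 at 56989485 to 57083531, both on the plus strand. Values of the HLA genes carry an added uncertainty, because they share long near-identical stretches between which reads may have been split. The use of strand in the counting is not given in the sources used here, so reads of TAP1 cannot be separated from those of PSMB8-AS1, which overlaps it on the opposite strand. TAP2 also shares exon sequence with AL669918.1 on the same strand.

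Upstream sequences of 3 members show the letters that textbook class I promoters are known for, and are given because heavy chain genes and B2M are known for shared regulation while HLA-B and HLA-C rose by unequal amounts at medium MYC. They are RefSeq reference bases on GRCh38.p14, not those of the cell line, cut to the bases before the annotated exons of each gene and printed 5′ to 3′ along the gene. Capitals mark matches on either strand to an interferon response core (GAAA-NN-GAAA, where N is any base and the hyphens stand for nothing), a κB-like site (GGGGA-NN-CCC), a CCAAT box (CCAAT) and the core of the CRE and X2 box (TGACG).
HLA-B (chr6:31357189-31357429, minus strand): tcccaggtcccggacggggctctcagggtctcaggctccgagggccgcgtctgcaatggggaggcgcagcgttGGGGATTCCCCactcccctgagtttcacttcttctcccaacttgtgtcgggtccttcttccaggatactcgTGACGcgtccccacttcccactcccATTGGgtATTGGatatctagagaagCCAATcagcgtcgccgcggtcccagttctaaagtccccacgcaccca
HLA-C (chr6:31272131-31272342, minus strand): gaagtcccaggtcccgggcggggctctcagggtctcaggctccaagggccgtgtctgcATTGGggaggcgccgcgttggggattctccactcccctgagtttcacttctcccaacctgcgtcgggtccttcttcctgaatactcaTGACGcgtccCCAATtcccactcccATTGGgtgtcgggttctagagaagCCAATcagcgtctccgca
B2M (chr15:44711267-44711486, plus strand): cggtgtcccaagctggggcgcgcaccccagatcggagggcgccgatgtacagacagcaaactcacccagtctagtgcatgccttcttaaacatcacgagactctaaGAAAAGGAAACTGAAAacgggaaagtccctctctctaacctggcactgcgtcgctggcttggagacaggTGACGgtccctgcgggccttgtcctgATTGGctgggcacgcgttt

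Promoters of 7 of the 9 genes were in the table, which covered 250 bases before each start, and HLA-E and NLRC5 were not. The interferon response core was found in 5 of the 7 (HLA-F, B2M, TAP1, TAP2 and TAPBP), beside 3.02% of all 35116 promoters in the table. CCAAT was found in 5 (HLA-B, HLA-C, HLA-F, B2M and TAP1; 32.0% of all), TGACG in 4 (HLA-B, HLA-C, B2M and TAP2; 21.2% of all), and the κB-like letters in HLA-B alone (2.55% of all). The E-box CACGTG, the letters best known for MYC binding, was in none of the 7 windows and in 6.34% of all. Only exact matches were counted, so related sites with other letters are neither marked nor counted. A gene without a match may still hold such an element. Overlapping matches can share letters, as in B2M, where a pair of interferon cores overlaps. The upstream windows of HLA-B and HLA-C were identical at 226 of 246 aligned bases (91.9%), including the TGACG element and the CCAAT box nearest the start.

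The interferon cores of the transporter and tapasin genes are shown as sites of 30 bases, with the core in capitals. These 3 genes fell under IMP1088 at high MYC. B2M, with matches printed above, and HLA-B and HLA-C, without an exact match, were not called there. At medium MYC both transporter genes fell, TAPBP was not called and B2M rose. The part of the cores in these changes was not tested.
TAP1 (chr6:32853816-32853845, minus strand): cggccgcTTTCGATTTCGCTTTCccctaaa
TAP2 (chr6:32838778-32838807, minus strand): ctggggaagcGAAAGCGAAAgctgcccgag
TAPBP (chr6:33314079-33314108, minus strand): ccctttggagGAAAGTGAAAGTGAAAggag
On TAP1 the core lies on the strand opposite to the gene, so it reads as its reverse complement, and in TAP1 and TAPBP a pair of matches overlaps. The windows that hold the TAP1 and TAPBP sites lie wholly within annotated GENCODE exons of the same gene. TAP1 has a further RefSeq start, whose window held no match. A match describes these letters and says nothing of binding in these cells.

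Levels between genes are compared per kilobase of each gene's longest annotated transcript. In high-MYC DMSO cells, B2M stood highest, at 4414 ± 143 normalized counts per kb (SD, n = 4). HLA-B followed at 2937 ± 88.9 and HLA-C at 1939 ± 60.5, the main peptide-presenting heavy chains among these genes. TAPBP was at 698 ± 34.2. HLA-E, whose product presents leader peptides of other class I molecules to NK cell receptors, was at 330 ± 12.2 per kb. TAP1 (293 ± 8.31), NLRC5 (247.5 ± 15.7) and TAP2 (237 ± 9.19) were lowest of the 8 genes with measurable RNA. The order of these last 3 depends on the length used, since over all annotated exons it was TAP2 (211), TAP1 (180) and NLRC5 (136). Over all annotated exons B2M was at 1745, HLA-B at 1489 and HLA-C at 1454, with narrower gaps in the same order. HLA-F was at or near the detection floor. It had 0 reads in all 4 high-MYC DMSO libraries, 1 read in 1 high-MYC IMP1088 library, 0 to 3 reads in medium-MYC DMSO libraries and 0 to 5 in medium-MYC IMP1088 libraries. It was left out of every test, which kept 13765 genes, those averaging at least 10 normalized counts over the 16 libraries, and no fold is given for it.

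**Figure D1:**
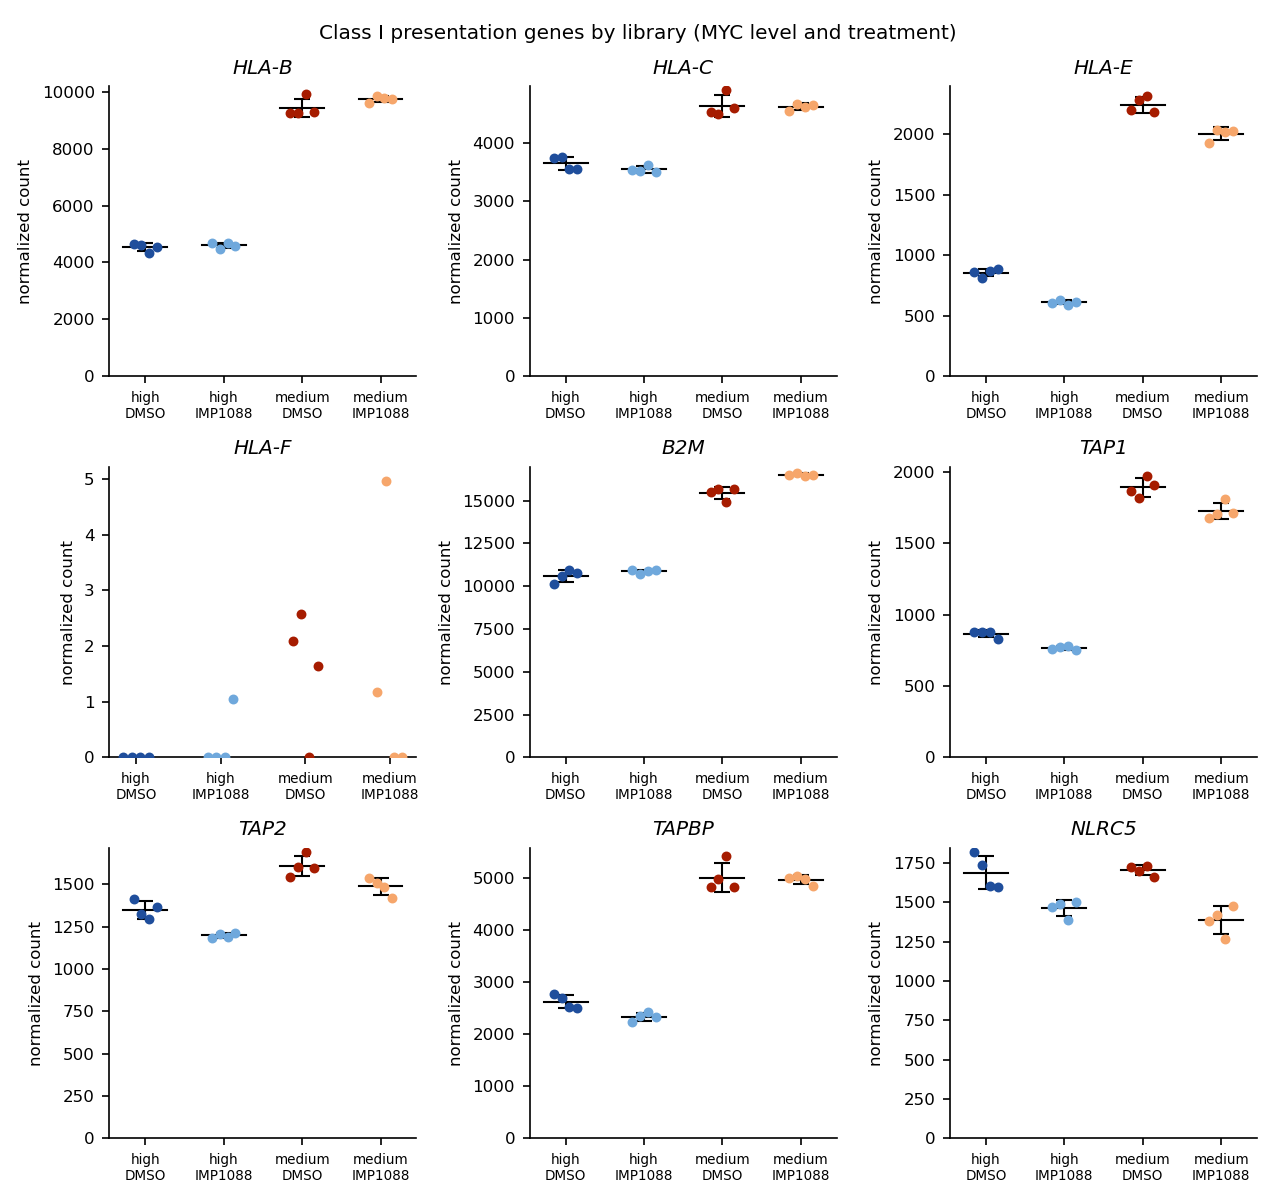
Normalized counts (y axis, from 0) of the 9 genes in the 16 libraries (points), by MYC level and treatment (x axis), with bars for the group mean and SD except for HLA-F, which is near 0 reads. HLA-E, TAP1 and HLA-B stood well above their high-MYC values in all 8 medium-MYC libraries, while NLRC5 lay between 1266 and 1817 throughout.

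The MYC comparison set medium-MYC against high-MYC cells. Among DMSO controls, 7 of the 8 tested genes rose at medium MYC and 1, NLRC5, did not pass the test (limma on log2 of the value plus 1, Benjamini-Hochberg adjusted p under 0.05 over all tested genes). The background was high: 76.2% of all tested genes were called in this comparison and 38.9% were called higher. The genes' median log2 difference was 0.74, beside 0.02 over all tested genes. In each of the 7, all 4 medium-MYC libraries lay above all 4 high-MYC libraries, which held in this direction for 35.6% of all tested genes.

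Among the heavy chains, HLA-E differed most. Its normalized counts were 864.6, 812.0, 871.9 and 884.0 in high-MYC DMSO libraries and 2198, 2284, 2314 and 2183 in medium-MYC DMSO libraries. No library of one group came near the other group. The log2 difference was 1.39 ± 0.04 (SE; limma adjusted p = 4.21e-19), a 2.61-fold higher level. HLA-B had 4648, 4626, 4346 and 4557 at high MYC and 9263, 9243, 9923 and 9286 at medium MYC, and was 2.07-fold higher (log2 1.05 ± 0.03, limma adjusted p = 1.18e-18). HLA-C, next to HLA-B on the chromosome, had 3734, 3752, 3552 and 3542 at high MYC and 4519, 4484, 4900 and 4597 at medium MYC. Its rise was 1.27-fold (log2 0.34 ± 0.03, limma adjusted p = 8.47e-10), and the 95% intervals of the HLA-B difference (0.99 to 1.11) and the HLA-C difference (0.28 to 0.41) lie apart. Summing the 4 HLA genes, which removes the question of how reads were split among them, gave 9047 ± 217.0 at high MYC and 16300 ± 559.0 at medium MYC (SD, n = 4 each), a log2 difference of 0.85 ± 0.03 (SE). B2M, whose product pairs with every heavy chain, had 10145, 10576, 10943 and 10764 at high MYC and 15537, 15658, 14939 and 15700 at medium MYC, 1.46-fold higher (log2 0.54 ± 0.03, limma adjusted p = 1.47e-14).

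The transporter genes moved by unequal amounts. TAP1 had 880.4, 876.0, 878.5 and 829.3 in high-MYC DMSO libraries and 1863, 1816, 1973 and 1911 in medium-MYC DMSO libraries, 2.18-fold higher (log2 1.13 ± 0.04, limma adjusted p = 1.33e-17). TAP2, its partner in the transporter, had 1414, 1324, 1294 and 1364 at high MYC and 1545, 1604, 1688 and 1597 at medium MYC, 1.19-fold higher (log2 0.25 ± 0.04, limma adjusted p = 1.44e-06). Both rose, and the lower bound of the 95% interval for TAP1 (1.05) lay above the upper bound for TAP2 (0.33). TAPBP had 2775, 2690, 2530 and 2507 at high MYC and 4826, 4989, 5424 and 4824 at medium MYC, 1.91-fold higher (log2 0.93 ± 0.04, limma adjusted p = 2.15e-15).

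NLRC5 stood apart from the genes it is known to activate. Its normalized counts were 1817, 1736, 1603 and 1598 at high MYC and 1723, 1699, 1729 and 1658 at medium MYC. The groups overlapped fully, and the log2 difference of 0.01 had a 95% interval from -0.08 to 0.11 (limma adjusted p = 0.791). 

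Under IMP1088 the MYC comparison again gave 7 higher and NLRC5 not called, beside 77.5% of all tested genes called and 39.7% called higher. It uses libraries other than those of the DMSO comparison. The log2 differences were 1.71 for HLA-E, 1.17 for TAP1, 1.09 for TAPBP, 1.08 for HLA-B, 0.60 for B2M, 0.38 for HLA-C and 0.31 for TAP2. That of NLRC5 was -0.08 (95% interval -0.18 to 0.02, limma adjusted p = 0.116). NLRC5 was called lower at medium MYC under IMP1088 after a correction for gene GC content (-0.16, limma adjusted p = 0.0014) and without medium-MYC IMP1088 replicate 4 (-0.11, limma adjusted p = 0.0415).

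The inhibitor comparison at high MYC set IMP1088 against DMSO. Of the 8 tested genes, 5 fell (HLA-E, TAP1, TAP2, TAPBP and NLRC5), 0 rose by limma, edgeR or DESeq2 and 3 did not pass the test (HLA-B, HLA-C and B2M), also at an unadjusted limma p under 0.05. Over all tested genes, 26.8% were called and 16.3% were called lower. The median log2 change of the 8 was -0.17, beside -0.02 over all tested genes. The 5 that fell were also those with all 4 IMP1088 libraries below all 4 DMSO libraries, a pattern held by 15.8% of all tested genes. These DMSO libraries also serve as the high-MYC controls above, so the comparisons share them.

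HLA-E showed the widest change of the 8 with IMP1088. The 4 high-MYC IMP1088 libraries had 606.5, 628.9, 591.7 and 617.5, all below the lowest DMSO library at 812.0. The log2 change was -0.49 ± 0.04 (SE), a 1.40-fold lower level (limma adjusted p = 1.21e-09). The other heavy chains stayed near their controls. HLA-B had 4684, 4483, 4680 and 4574 with IMP1088, overlapping the DMSO values with 4684 and 4680 above the highest of them, and a log2 change of 0.02 (95% interval -0.04 to 0.08, limma adjusted p = 0.666). HLA-B passed the test as higher under quantile normalization (0.08, limma adjusted p = 0.0388) and after the GC correction (0.10, limma adjusted p = 5.85e-04), and its change was -0.00 without high-MYC DMSO replicate 3. HLA-C had 3536, 3507, 3626 and 3499, overlapping its controls, with a log2 change of -0.04 (95% interval -0.10 to 0.02, limma adjusted p = 0.346), which turned to 0.06 after the GC correction. B2M had 10926, 10739, 10874 and 10953 and also overlapped its controls (0.04, 95% interval -0.02 to 0.09, limma adjusted p = 0.318).

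The loading genes also fell at high MYC. TAP1 had 760.3, 775.3, 780.2 and 753.6 with IMP1088, a log2 change of -0.17 ± 0.04 (limma adjusted p = 7.26e-04). TAP2 had 1181, 1207, 1191 and 1212, a change of -0.17 ± 0.04 (limma adjusted p = 0.00107). TAPBP had 2239, 2353, 2434 and 2331, a change of -0.17 ± 0.04 (limma adjusted p = 0.00273). In each gene no IMP1088 library reached the lowest DMSO library, and the levels were 1.12-fold to 1.13-fold lower. NLRC5 had 1471, 1491, 1390 and 1502 and was 1.15-fold lower (-0.20 ± 0.05, limma adjusted p = 0.00191). All 5 calls at high MYC held in each of the 22 or 23 alternative analyses run for the gene. After the GC correction the changes were smaller for TAP1 (-0.097), TAPBP (-0.088) and NLRC5 (-0.125), while TAP2 was at -0.156.

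**Figure D2:**
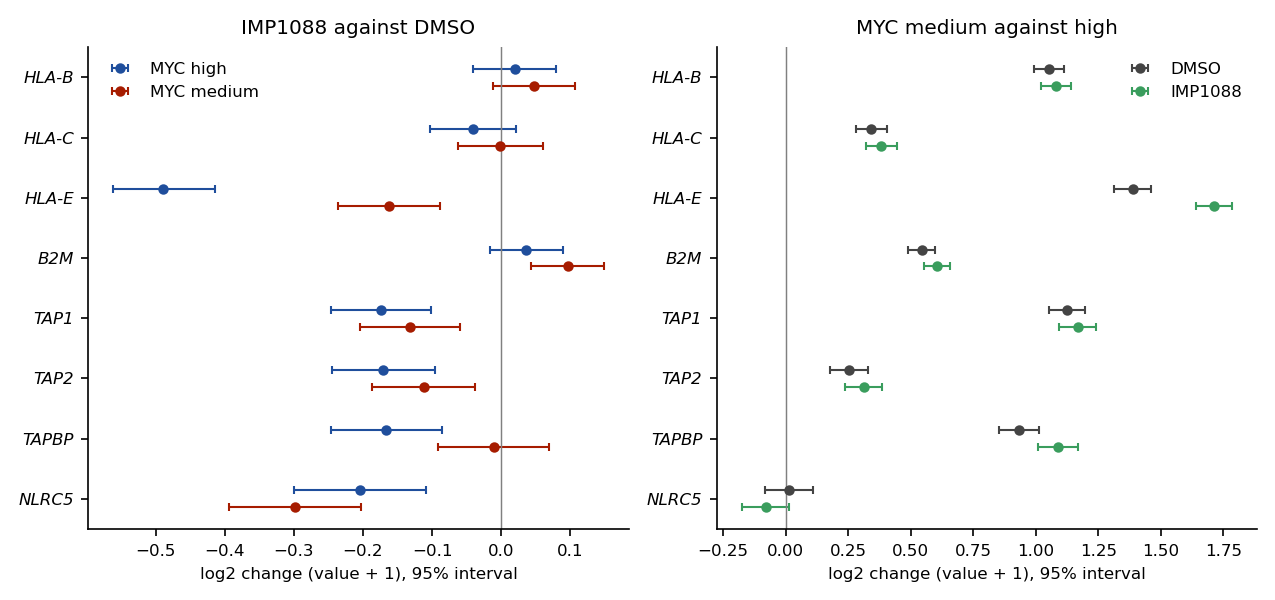
Log2 changes on the value plus 1 scale (x axis) with 95% intervals for the 8 tested genes (y axis), left for IMP1088 against DMSO at high and medium MYC and right for medium against high MYC in DMSO and under IMP1088. HLA-E is the only gene whose high-MYC and medium-MYC intervals in the left panel do not overlap (around -0.49 and -0.16), and NLRC5 is the only one near 0 in the right panel.

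At medium MYC, IMP1088 gave 1 higher gene, B2M, 4 lower genes (HLA-E, TAP1, TAP2 and NLRC5) and 3 that did not pass the test (HLA-B, HLA-C and TAPBP). Over all tested genes, 26.3% were called, 11.7% higher and 14.6% lower. The median log2 change of the 8 was -0.06, beside -0.01 over all tested genes. The same 5 genes had IMP1088 and DMSO libraries without overlap, which held in either direction for 27.9% of all tested genes.

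NLRC5 had 1383, 1421, 1266 and 1474 in medium-MYC IMP1088 libraries, all below the lowest DMSO library at 1658. Its log2 change was -0.30 ± 0.05 (limma adjusted p = 3.61e-05), 1.23-fold lower, and the widest among these genes at medium MYC. HLA-E had 1927, 2040, 2022 and 2031, below its controls at 2183 to 2314, with a change of -0.16 ± 0.04 (limma adjusted p = 0.00136). B2M moved the other way. It had 16510, 16647, 16471 and 16491, above the highest DMSO library at 15700, a 1.07-fold rise (log2 0.10 ± 0.03, limma adjusted p = 0.00609). The log2 rise was 0.059 after the GC correction and 0.261 under quantile normalization, and was called in both. Thus the light chain gene rose while HLA-E, both transporter genes and NLRC5 fell in the same libraries.

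The transporter changes at medium MYC were small. TAP1 had 1679, 1703, 1809 and 1710, a change of -0.13 ± 0.04 (limma adjusted p = 0.00702), and did not pass the test under quantile normalization (-0.09, limma adjusted p = 0.0560) or after the GC correction (-0.07, limma adjusted p = 0.117). TAP2 had 1538, 1509, 1486 and 1420, a change of -0.11 ± 0.04 (limma adjusted p = 0.0238). The TAP2 call was lost in 5 of 23 alternatives, among them leaving out medium-MYC DMSO replicate 3 (limma adjusted p = 0.0825) or medium-MYC IMP1088 replicate 4 (limma adjusted p = 0.0925). The 3 genes not called were close to their controls. HLA-B had 9597, 9850, 9773 and 9740 (0.05, 95% interval -0.01 to 0.11, limma adjusted p = 0.243). It was called higher with equal library totals (0.08, limma adjusted p = 0.0343) and after the GC correction (0.12, limma adjusted p = 8.68e-05). HLA-C had 4548, 4670, 4619 and 4641 (-0.00, 95% interval -0.06 to 0.06, limma adjusted p = 0.989) and was called higher after the GC correction (0.10, limma adjusted p = 0.0048). TAPBP had 4999, 5048, 4994 and 4857 (-0.01, 95% interval -0.09 to 0.07, limma adjusted p = 0.883), with a sign that depended on the scaling.

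Whether the inhibitor response differed with MYC level was tested as an interaction, the change at high MYC minus that at medium MYC. Of the 8 genes, 1 passed, HLA-E, beside 8.63% of all tested genes called and 5.33% called lower. The HLA-E response was lower at high MYC by 0.33 ± 0.05 on the log2 scale (95% interval -0.43 to -0.22, limma adjusted p = 1.38e-04). In normalized counts the HLA-E means were 858.1 ± 31.81 and 611.1 ± 15.87 at high MYC without and with IMP1088, and 2245 ± 64.21 and 2005 ± 52.58 at medium MYC (SD, n = 4 each). The control level was lower at high MYC, and the fall relative to it was larger there. In normalized counts the falls were of similar size at both levels, so the difference is one of the log2 scale. For TAPBP, which fell at high MYC and was not called at medium MYC, the difference was -0.16 (95% interval -0.27 to -0.04) and did not pass (limma adjusted p = 0.087). It passed without medium-MYC DMSO replicate 3 (-0.19, limma adjusted p = 0.0113), with equal library totals (limma adjusted p = 0.0302) and after the GC correction (limma adjusted p = 0.0107). For B2M the difference was -0.06 (95% interval -0.14 to 0.01, limma adjusted p = 0.352) and passed only under quantile normalization (-0.20, limma adjusted p = 0.00243). The differences of HLA-B, HLA-C, TAP1, TAP2 and NLRC5 lay between -0.06 and 0.09 and did not pass (limma adjusted p from 0.445 to 0.763), with intervals that reached from -0.16 (TAP2) to 0.23 (NLRC5).

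Ratios between members within a library do not depend on the scaling of that library. HLA-B per HLA-C was 1.25 ± 0.03 in high-MYC DMSO cells and 2.04 ± 0.02 in medium-MYC DMSO cells (SD, n = 4 each), with no overlap. With IMP1088 it was 1.30 ± 0.02 and 2.11 ± 0.01. TAP1 per TAP2 was 0.643 ± 0.033 and 1.18 ± 0.03 in DMSO, and with IMP1088 it was 0.641 ± 0.014 and from 1.09 to 1.22, so the MYC levels separated fully and the treatments overlapped. HLA-E per HLA-B was 0.189 ± 0.011 at high MYC with DMSO and 0.133 ± 0.006 with IMP1088, and 0.238 ± 0.006 and 0.206 ± 0.003 at medium MYC. It was lower with IMP1088 in every library at each MYC level. B2M per summed HLA-B, HLA-C and HLA-E was 1.17 ± 0.06 and 1.24 ± 0.02 at high MYC, and 0.95 ± 0.05 and 1.01 ± 0.01 at medium MYC, without and with IMP1088. The light chain was thus lower per heavy chain RNA at medium MYC in every library. These ratios show unequal change, not which gene moved.

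**Figure D3:**
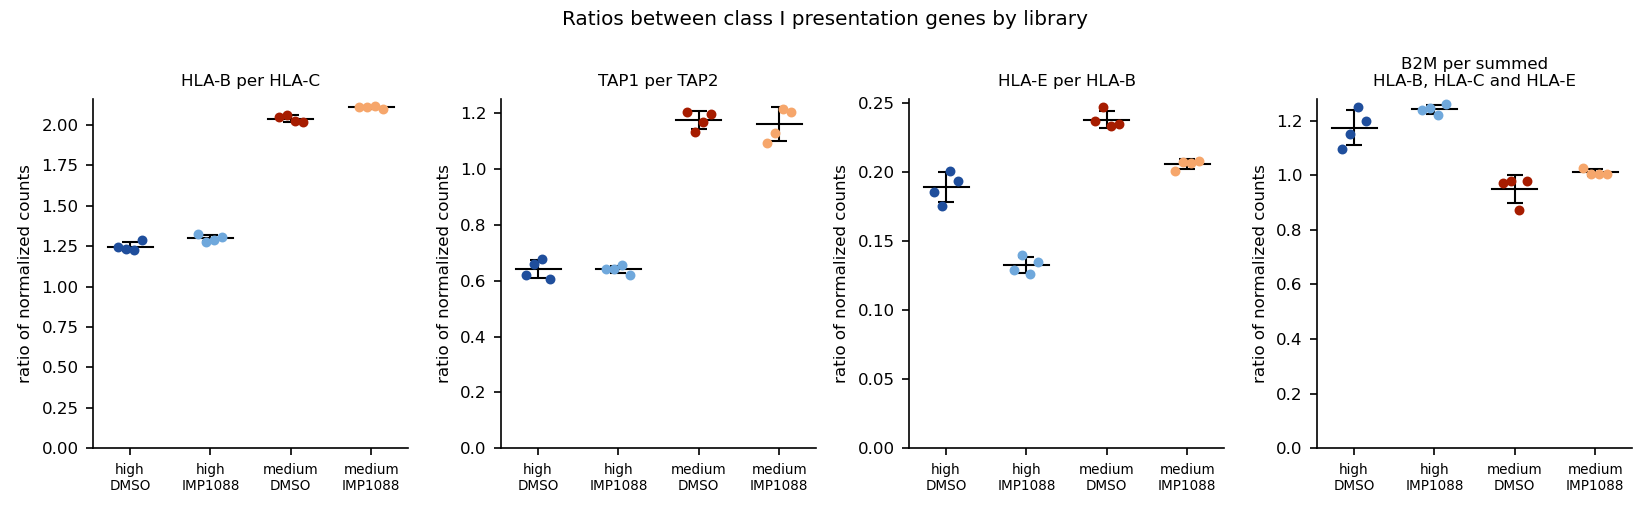
Ratios of normalized counts between members within each library (y axis, from 0), by MYC level and treatment (x axis), as points with the group mean and SD. HLA-B per HLA-C and TAP1 per TAP2 separate the MYC levels, from 1.25 to 2.04 and from 0.643 to 1.18 in DMSO, and HLA-E per HLA-B falls with IMP1088 at both MYC levels.

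Over the 4 group means, each centred on its own average, the most alike pairs of members were HLA-C and TAP2 (root mean square difference 0.0724 on the log2 scale), HLA-B and TAPBP (0.0741), and TAP1 and TAPBP (0.0801). The neighbours HLA-B and HLA-C differed by 0.353 and the transporter partners TAP1 and TAP2 by 0.432. Of 10774 genes with a mean of at least 50, those nearest to HLA-B were TMEM35B (0.0102), MAPK6 (0.0103) and CCDC9 (0.0142). Nearest to B2M were ATF2 (0.0101), PPP2R5E (0.0137) and GPATCH2L (0.0145). Nearest to TAP1 were PPP1R13B (0.0078), REPS2 (0.0188) and TBC1D10A (0.0192), and nearest to NLRC5 were RNPEPL1 (0.0216) and RAB40C (0.0251). With only 4 group means, many genes can lie close to any pattern.

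Peptide supply was followed in the 5 genes of the immunoproteasome and the PA28 activator. At high MYC 4 of 5 fell with IMP1088 (3 by DESeq2) and at medium MYC 3 of 5 fell, beside 16.3% and 14.6% of all tested genes called lower. Of the 5, 0 rose in either by limma, at an unadjusted limma p under 0.05 as well, or by edgeR or DESeq2. PSMB9, a catalytic subunit that replaces a constitutive one after interferon, had 244.0, 297.6, 231.8 and 260.4 in high-MYC DMSO libraries and 165.6, 181.9, 203.3 and 172.6 with IMP1088, without overlap (-0.51 ± 0.07, limma adjusted p = 1.71e-05). At medium MYC it fell by 0.44 on the log2 scale (limma adjusted p = 9.29e-05). PSMB8, also a catalytic subunit, changed by -0.31 at high MYC and -0.17 at medium MYC (limma adjusted p = 1.15e-05 and 0.00443), and PSME2, a PA28 subunit, by -0.12 and -0.14 (limma adjusted p = 0.0116 and 0.00304). PSMB10 changed by -0.17 at high MYC (limma adjusted p = 0.0255, lost in 7 of 23 alternatives). Of the 5 interactions, 0 passed by limma, edgeR or DESeq2, and 1 had an unadjusted limma p under 0.05. Between MYC levels in DMSO, 4 of 5 rose at medium MYC (38.9% of all tested genes were called higher), with PSMB9 2.44-fold, PSME2 2.12-fold, PSME1 1.66-fold and PSMB10 1.28-fold higher. PSMB8, whose gene is close to TAP1 and PSMB9, did not pass by limma (log2 -0.08), while edgeR called it lower. PSMB9 per PSMB8 was 0.306 ± 0.036 at high MYC and 0.791 ± 0.033 at medium MYC in DMSO, the same direction of imbalance as TAP1 over TAP2. Exons of PSMB8 and PSMB9 overlap on opposite strands, and PSMB8-AS1 overlaps both of them and TAP1. The use of strand is not given, so both ratios may carry reads of PSMB8-AS1.

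Of the 8 genes for peptide trimming and loading in the endoplasmic reticulum, 1 rose and 2 fell with IMP1088 at high MYC, and 4 rose and 1 fell at medium MYC, beside 26.8% and 26.3% of all tested genes called. At high MYC edgeR called 1 higher and 0 lower and DESeq2 1 and 1, and at medium MYC both called 5 higher and 0 lower. The single fall at medium MYC, of the trimming peptidase ERAP2 (-0.16, limma adjusted p = 0.0471), was lost in 15 of 23 alternatives. The 4 that rose at medium MYC are general chaperones of this compartment that also serve class I assembly: HSPA5 (log2 1.28), CALR (0.59), CANX (0.40) and PDIA3 (0.16). For all 4 the response differed between MYC levels (interaction -1.24, -0.67, -0.29 and -0.24, limma adjusted p from 7.02e-15 to 2.58e-04). At high MYC, CANX changed by 0.10 (limma adjusted p = 0.0049), CALR by -0.08 and PDIA3 by -0.08, and the last 2 calls were lost in 13 and 12 of 23 alternatives. Values at medium MYC of 3 genes that limma did not call there follow. The trimming peptidase LNPEP had 4916 ± 341.1 and 5299 ± 203.0 without and with IMP1088 (SD, n = 4 each; log2 0.11, limma adjusted p = 0.0569). ERAP1, a trimming peptidase, had 1731 ± 45.03 and 1765 ± 81.14, and TAPBPL, a further peptide editor, had 200.1 ± 10.25 and 178.5 ± 11.42. Between MYC levels in DMSO, 5 of the 8 rose at medium MYC, including TAPBPL (2.23-fold), LNPEP (1.79-fold) and ERAP1 (1.49-fold), and 3 fell, led by HSPA5 (log2 -0.75) and CANX (-0.70).

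Of 11 class I-like genes, 5 were tested and the other 6 lay under the mean of 10. With IMP1088 at high MYC, 2 of the 5 fell, beside 16.3% of all tested genes called lower: CD1D, which presents lipids, from 21.87 ± 4.35 to 11.07 ± 2.93 normalized counts (SD, n = 4 each; limma adjusted p = 0.00349), and MR1, which presents vitamin B metabolites, from 328.7 ± 22.53 to 283.2 ± 22.07 (limma adjusted p = 0.00849). At medium MYC 0 of 5 were called by limma, edgeR or DESeq2, and 2 had an unadjusted limma p under 0.05, both lower. At medium MYC in DMSO, 3 of 5 were higher than at high MYC (2 by DESeq2), with MR1 3.09-fold and MICB, a stress ligand of the NK receptor NKG2D, 1.39-fold higher. MICA, also an NKG2D ligand, was 1.36-fold higher, a call lost in 12 of 22 alternatives.

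Of the 16 regulators of class I promoters, 3 rose and 3 fell with IMP1088 at high MYC, and 2 rose and 4 fell at medium MYC. These counts stand beside 26.8% and 26.3% of all tested genes called, and nothing is read from them about the list. DESeq2 called 3 higher and 2 lower at high MYC and 1 and 2 at medium MYC. IRF8, an IRF family factor of B and myeloid cells, rose, from 1393 to 1415 with DMSO to 1697 to 1760 with IMP1088 at high MYC (0.30, limma adjusted p = 3e-08) and by 0.19 at medium MYC (limma adjusted p = 1.55e-05). IRF1, which activates class I genes, rose by 0.21 at high MYC (limma adjusted p = 3.95e-05) and changed by -0.10 at medium MYC (limma adjusted p = 0.0311, lost in 12 of 23 alternatives), an interaction of 0.31 (limma adjusted p = 1.01e-04). RELB, an NF-κB subunit, rose by 0.35 at high MYC (limma adjusted p = 5.19e-04). Thus NLRC5 fell with the transporter genes at high MYC, while IRF1, IRF8 and RELB rose in the same libraries.

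Between MYC levels in DMSO, 12 of these 16 regulators rose at medium MYC and 3 fell, where 76.2% of all tested genes were called and 38.9% were higher. NFKB1 was 2.52-fold, IRF1 1.91-fold and IRF8 1.83-fold higher, whereas NLRC5 differed by 0.01 on the log2 scale as given above. Of the proteins that bind the upstream module with NLRC5, RFX5 was 1.21-fold higher at medium MYC (limma adjusted p = 2.66e-07) and RFXAP changed by -0.36 (limma adjusted p = 5.46e-04).

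All 11 genes of interferon receptor signalling rose at medium MYC in DMSO, with a median log2 difference of 1.56, beside 38.9% of all tested genes called higher. SOCS3, 1 of the 11, averaged 7.01 and 6.54 at high MYC and 47.83 and 46.04 at medium MYC, without and with IMP1088. It passed the filter at a mean of 10 only through its medium-MYC values, so its call adds no support. DESeq2 called 10 of the 11, and the smallest difference, of the receptor chain gene IFNAR1 (0.12, limma adjusted p = 0.0393), lost its call in 11 of 23 alternatives. JAK1, a kinase of both receptor types, was 6.35-fold higher, IFNGR1, a chain of the interferon-γ receptor, 7.27-fold, TYK2 3.27-fold and STAT2 2.46-fold. With IMP1088, 1 rose and 5 fell at high MYC by limma, 0 rose and 3 fell there by edgeR, and 1 rose and 2 fell at medium MYC by limma, beside 26.8% and 26.3% of all tested genes called. IFNGR1 fell at both levels, from 174.7, 202.1, 202.0 and 183.3 to 157.0, 163.1, 129.2 and 133.1 at high MYC, and from 1335, 1473, 1318 and 1438 to 1123, 1094, 1012 and 1010 at medium MYC. The log2 changes were -0.39 at each level (limma adjusted p = 2.9e-04 and 2.52e-04), and no inhibitor library reached its controls. SOCS1, an inhibitor of JAK kinases, rose from 46.75 ± 10.84 to 63.62 ± 5.28 at high MYC (SD, n = 4 each; limma adjusted p = 0.0118, lost in 2 of 23 alternatives).

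**Figure D4:**
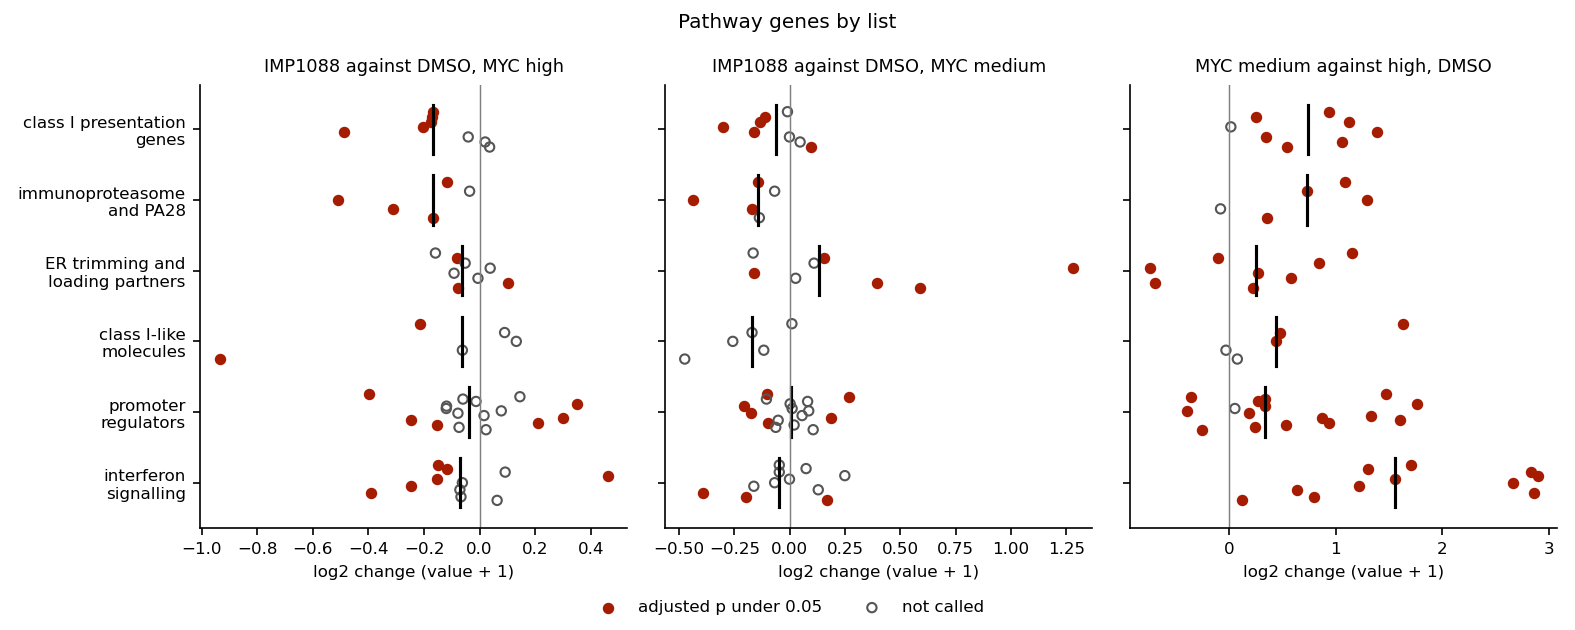
Log2 changes on the value plus 1 scale (x axis) of the tested genes of 6 lists (rows), with 1 point per gene, filled where the limma adjusted p was under 0.05, and a black line at the list's median. With IMP1088 at high MYC the class I presentation genes had a median of -0.17, and at medium against high MYC in DMSO all 11 interferon signalling genes lay above 0. Among these 11, SOCS3 passed the filter only through its medium-MYC values.

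The 12 MHC class II genes, which present peptides from outside the cell to CD4 T cells, give a measure against another presentation pathway in the same libraries. With IMP1088 at high MYC, 11 of 12 fell (median log2 -0.26), and at medium MYC 5 fell (median -0.08), beside 16.3% and 14.6% of all tested genes called lower. Of the 5 calls at medium MYC, 3 were lost in some alternatives, HLA-DRB1 in 9 of 23, HLA-DOB in 10 of 22 and CD74 in 7 of 23. HLA-DOB at high MYC was lost in 7 of 22. In neither comparison did any of the 12 rise, by limma, edgeR or DESeq2. CIITA, the class II transactivator and a relative of NLRC5, changed by -0.37 at high MYC and -0.15 at medium MYC, with an interaction of -0.22 (limma adjusted p = 0.0111). NLRC5 changed by -0.20 and -0.30, with an interaction of 0.09 (95% interval -0.04 to 0.23, limma adjusted p = 0.445). HLA-DRA, a class II chain, changed by -0.26 at high MYC (limma adjusted p = 5.04e-07), where HLA-B and HLA-C were within 0.05 of their controls. CD74, the class II invariant chain, changed by -0.24 (limma adjusted p = 2.36e-04). All 12 class II genes were higher at medium than at high MYC in DMSO (median 0.69, beside 38.9% of all tested genes called higher), and there CIITA was 1.22-fold higher.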

How the data were processed

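The authors deposited 1 table of normalized counts, a signal that is never negative, for 58051 identifiers in 16 libraries. The submitters' processing notes list STAR 2.5.2a, RSEM 1.2.31, DESeq2 1.16.1 and GRCh38 without their roles; the annotation and the use of strand are not given in the sources used here. Each deposited value is a whole number times a single step per library (100.0% of values within 0.001 of a whole read; largest deviation 1.08e-09), so reads were recovered (8755296 to 13858534 per library) and used for edgeR 4.0.16 and DESeq2 1.42.0 as alternatives. The labels name no molecular identifiers, so depth speaks for counting error only.

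A gene name table matched 56948 identifiers, and 57447 were in GENCODE 29. The main test was limma 3.58.1 (R 4.3.3) on log2 of the value plus 1, with 4 group means over all libraries, an empirical Bayes mean trend, a mean of at least 10 (13765 genes), Benjamini-Hochberg adjustment and a two-sided threshold of 0.05. Fold changes are on that scale, which understates low genes. The code was tested on simulated counts.

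All 9 members are named. From each pathway list, up to 4 called genes with the smallest adjusted p per comparison were named, and others carry values only; some genes so chosen are not reported here. From the class II list, CIITA, CD74 and HLA-DRA were named. Nearest patterns are given for 4 members. The members and lists were chosen with earlier results of these data known. Alternatives covered scaling, pseudocount, filter, mean trend, compared groups only, GC content (13694 of 13765 genes), a replicate block, other tools, summed HLA genes and leaving out each library.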

Additional observations from a re-analysis of the deposited data

Results flagged for a closer look

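In 4 of 35 gene-by-group sets of 4 libraries, 1 library lay apart from the rest, and chance alone flags about 1 in 20 such sets. HLA-B was at 9923 in medium-MYC DMSO replicate 3, with the others from 9243 to 9286. That library was the highest of its group for 7 of the 8 measurable members and the lowest for the other, B2M. HLA-E was at 1927 in medium-MYC IMP1088 replicate 1, with the others from 2022 to 2040. TAP1 was at 829.3 in high-MYC DMSO replicate 4, with the others from 876.0 to 880.4. HLA-F was at 1.04 in high-MYC IMP1088 replicate 4, which is 1 read, and at 0 in the others.

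The HLA-E response to IMP1088 differed between MYC levels, by -0.33 on the log2 scale (high minus medium, limma adjusted p = 1.38e-04), with all 4 inhibitor libraries below all 4 controls at each level.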

How the results depend on the processing

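Over 5 counts of called members, most alternatives stayed within 1.5 times the reported count. At medium MYC the inhibitor called 3 members under quantile normalization in place of 5. The interaction called 2 in place of 1 with equal library totals, quantile normalization, the GC correction and the GC correction with the replicate block, and 0 with the HLA genes summed. Leaving out 1 library gave 1 to 2 members for the interaction (2 without medium-MYC DMSO replicate 3), 5 to 5 at high MYC, 4 to 5 at medium MYC, 7 to 7 for MYC in DMSO and 7 to 8 for MYC under IMP1088. No called member reversed. Signs turned for members that were not called. HLA-C at high MYC went to 0.056 with the GC correction, with or without the block. HLA-C at medium MYC went to 0.027 (equal totals), 0.010 (TMM and edgeR), 0.032 (quantile), 0.098 (GC, with or without the block) and 0.002 (DESeq2), and ranged from -0.015 to 0.027 leaving out 1 library. TAPBP at medium MYC went to 0.018 (equal totals), 0.001 (TMM) and 0.054 (GC, with or without the block), and ranged from -0.029 to 0.028 leaving out 1 library. The HLA-B interaction went to 0.059 (quantile). NLRC5 between MYC levels in DMSO went to -0.052 (GC, with or without the block) and -0.001 (edgeR), and ranged from -0.012 to 0.050 leaving out 1 library. HLA-B at high MYC ranged from -0.002 to 0.032 leaving out 1 library. The cause of these shifts was not tested. Interferon signalling genes called at high MYC numbered 6 by limma, 3 by edgeR and 4 by DESeq2.

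Same-numbered samples showed little shared deviation (mean correlations of deviations from -0.07 to 0.02, and 0 to 2 of 8 samples closest to their own number). Single pairs reached 0.24. With 4 libraries per group this cannot exclude a pairing, and the labels do not say what a shared number means. With the replicate block alone the 5 counts were the reported 5, 5, 1, 7 and 7. Depth left HLA-F, at 5 reads or fewer in every library, without a test. Differences of a few percent between groups are near the spread of 4 libraries.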
